A study of Homo sapiens with 4 samples.

Results

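The genes described here are 36 genes of mitosis and the G2/M transition, chosen by symbol as a list of cell cycle regulators. The list was drawn up with earlier results of these data known. All 36 were found among the 25559 gene symbols of the RNA-seq tables, and all 36 had enough reads to be kept by edgeR's filterByExpr, as did 12967 genes in all. They were compared between 2 libraries of wildtype (wt) HGC27 cells, called control here, and 2 libraries of RUNX3 knock-out (RUNX3 KO) HGC27 cells. HGC27 is a human gastric cancer cell line, and RUNX3 is a Runt-domain transcription factor. The knock-out was made with Cas9 and a guide against RUNX3, delivered by lentivirus, followed by puromycin selection and single-cell cloning. The number of clones behind the RUNX3 KO libraries is not given in the sources used here. The paper's methods also do not state whether control cells received virus or puromycin. Loss of RUNX3, such treatment and differences between clones therefore cannot be told apart. Nothing states that replicates were separate cultures, and p-values then measure only the spread between these libraries, which may be technical.

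Each library held between 11731401 and 12110876 reads assigned to genes. For RUNX3 itself, control libraries held 351 and 308 counts against 225 and 185 under knock-out (log2 fold change -0.70 with SE 0.0961, edgeR adjusted p = 1.43e-09). Without RUNX3 KO replicate 2 that value was -0.55, with an adjusted p of 0.0649. Replicates were close, with a chi-square per degree of freedom of 1.22 between the control libraries and 1.18 between the RUNX3 KO libraries, against 17.1 and 17.3 between libraries of the same number in the different conditions. Of the epithelial genes checked, KRT8 had 19, 11, 72 and 81 counts and CDH1 15, 21, 30 and 32 counts, giving the control pair before the RUNX3 KO pair, whereas EPCAM had 1, 1, 0 and 0, KRT18 had 0, 0, 2 and 14, and KRT19 was at 0 in each library. The 6 gastric markers checked summed to at most 1 count per library. Blood cell markers summed to 15 to 27 counts and endothelial markers to 1 to 4 counts per library.

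Entry into mitosis is driven by CDK1 bound to A- and B-type cyclins, and exit from it by the anaphase-promoting complex, a ubiquitin ligase that marks cyclin B and securin for destruction once the spindle assembly checkpoint is satisfied. Most of the genes involved are transcribed in a wave late in the cell cycle. Their promoters carry CCAAT boxes, bound by NF-Y, and CHR elements (cell cycle genes homology region), bound by the MuvB complex together with B-MYB and FOXM1. In RNA from a growing culture, a larger share of cells in G2 or mitosis and more transcript per cell cannot be told apart.

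Promoters of 4 genes, chosen after their values were seen, are shown because each carries CCAAT boxes, and all but BUB1 a CHR, while their transcripts moved in different directions. CCNB2 had the largest rise of the 36, CDC20 the highest level per length, BUB1 the largest fall, and TOP2A the highest number of counts among the genes that fell. The sequences come from RefSeq (GRCh38.p14), each matched at a single place in the gene or its flanks in GRCh37, and were limited to bases upstream of the transcription start that lie in no annotated exon. They are chr15:59397095-59397324 on the plus strand for CCNB2, chr1:43824402-43824651 on the plus strand for CDC20, chr17:38574149-38574398 on the minus strand for TOP2A and chr2:111435641-111435781 on the minus strand for BUB1, in GRCh37. Each is written 5′ to 3′ on the strand of the gene. Capitals mark the letters CCAAT or their reverse complement ATTGG, and TTTGAA (CHR) or its reverse complement TTCAAA.
CCNB2: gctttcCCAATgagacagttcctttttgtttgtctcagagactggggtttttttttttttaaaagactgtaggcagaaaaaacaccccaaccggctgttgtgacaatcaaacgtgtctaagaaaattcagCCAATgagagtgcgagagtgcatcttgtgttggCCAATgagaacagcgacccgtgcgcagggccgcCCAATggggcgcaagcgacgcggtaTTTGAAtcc
CDC20: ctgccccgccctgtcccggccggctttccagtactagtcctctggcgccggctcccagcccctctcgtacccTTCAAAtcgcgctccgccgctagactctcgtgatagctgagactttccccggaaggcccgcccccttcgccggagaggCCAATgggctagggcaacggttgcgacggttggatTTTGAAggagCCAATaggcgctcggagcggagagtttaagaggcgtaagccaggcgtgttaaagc
TOP2A: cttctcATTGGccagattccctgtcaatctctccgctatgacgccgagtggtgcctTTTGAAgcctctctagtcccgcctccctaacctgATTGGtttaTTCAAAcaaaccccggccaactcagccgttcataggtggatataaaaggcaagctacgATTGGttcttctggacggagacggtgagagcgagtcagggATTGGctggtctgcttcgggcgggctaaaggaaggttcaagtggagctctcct
BUB1: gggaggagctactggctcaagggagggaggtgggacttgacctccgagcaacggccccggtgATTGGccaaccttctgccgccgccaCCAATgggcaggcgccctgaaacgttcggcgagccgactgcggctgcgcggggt

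The CCNB2 stretch holds 4 CCAAT boxes and 1 CHR, that of CDC20 2 of each, that of TOP2A 4 CCAAT boxes and 2 CHR matches, and the shorter one of BUB1 2 CCAAT boxes and no CHR match. RefSeq promoters of 300 bases, from 250 bases before the start to 50 after it, were found for 29 of the 36 genes. AURKA, FOXM1, BUB3, TTK, UBE2C, TPX2 and BIRC5 had no entry in the table. TTTGAA on either strand was in 18 of the 29 promoters (62.1%), against 15.2% of all 35116 promoters in the table and 9.4% of the 8864 that belong to tested genes. CCAAT was in 20 of 29 (69.0%), against 34.6% of all promoters and 37.1% of those of tested genes. Both motifs were in 14 of 29 (48.3%), against 3.95% of the promoters of tested genes, and neither in 5. The RUNX core ACCACA, again on either strand, was in 2 of 29 (6.9%), those of ANLN and PTTG1, against 13.1% of all promoters and 9.06% of those of tested genes. By direction, TTTGAA was in 10 of 16 promoters of members that rose, 2 of 4 of members that fell and 6 of 9 of the others. CCAAT was in 14 of 16, 2 of 4 and 4 of 9. These are matches of letters in a window and do not show binding.

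In RUNX3 KO cells, 18 of the 36 genes (50%) rose and 5 (13.9%) fell at an adjusted p under 0.05 by edgeR's quasi-likelihood test, while 13 were not called. Among all genes tested, 24.5% were called higher and 24.4% lower, 48.9% in all. The calls were fewer without RUNX3 KO replicate 1 (13 members higher and 2 lower), without RUNX3 KO replicate 2 (12 higher and 1 lower, BUB1) and with DESeq2 (15 higher and 2 lower), and without a filter on low counts 15 were higher and 3 lower. Calls over all genes also dropped without RUNX3 KO replicate 1 (1483 higher and 1531 lower) or replicate 2 (1285 and 1378). Among the 8332 genes with mean counts within the range of the members (193 to 10556), 30.9% were higher and 24.8% lower. The changes were small. The 18 genes that rose did so by 8.28% to 51.8%, with a median of 15.3%, and the other 5 fell by 5.25% to 19.5%. The median log2 fold change of the 36 was 0.12, against -0.0021 for all tested genes. No member reached a 2-fold change, which 6.12% of tested genes did with p of at most 0.05, and only CCNB2 passed 1.5-fold, against 13.4% of tested genes and 6.46% of those in the same range of counts. Against a null of a change under 1.2-fold, CCNB2, CCNB1 and FOXM1 alone were called higher and none lower, beside 7.03% and 11.4% of tested genes.

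The summed level of the 36 genes was 7605 and 7554 CPM (counts scaled to library size with edgeR's TMM factors) in the control libraries and 8124 and 8109 CPM in the RUNX3 KO libraries. On this sum the conditions did not overlap. The median log2 CPM over the members did overlap, at 7.34 and 7.37 in control and 7.32 and 7.37 in RUNX3 KO libraries. The libraries of the conditions did not overlap in 30 of the 36 genes, 22 of them higher and 8 lower in RUNX3 KO cells. The same held for 72.7% of all tested genes and 77.1% of those in the range of counts of the members. The 2 replicates of a member differed by a median of 0.0317 on the log2 scale in control and 0.0595 in RUNX3 KO cells. In 26 members the change between conditions was larger than both replicate differences, a count not taken over all tested genes. With 2 libraries on either side, exact permutation (two-sided) has p = 0.333 as its smallest value.

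**Figure D1:**
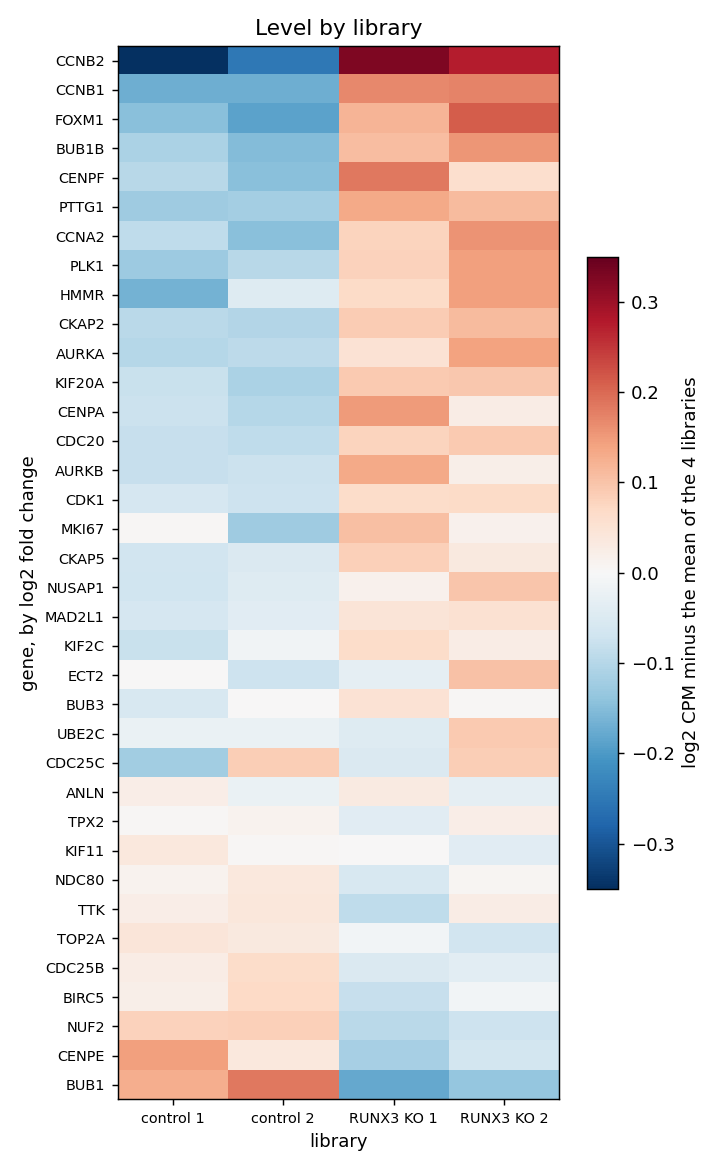
Log2 CPM of the 36 genes (rows, ordered by log2 fold change) in the 4 libraries (columns), minus the mean of the gene's 4 values. Blue is below and red above that mean. Most of the upper rows are blue in both control libraries and red in both RUNX3 KO libraries, with MKI67 in control replicate 1 near its mean, the lowest rows, from TOP2A to BUB1, show the reverse, and the middle rows, from ECT2 to TTK, show little difference between conditions.

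Among the kinases, cyclins and regulators of mitotic entry, 7 of 9 genes were higher and none lower, beside 30.9% and 24.8% of tested genes in the same range of counts, with a median of 0.23 on the log2 scale. The count was 6 without RUNX3 KO replicate 1 and 4 without RUNX3 KO replicate 2. CCNB2, which encodes cyclin B2 and lies at chr15:59397325-59417244 (GRCh37, plus strand), had 924 and 991 counts in control libraries against 1480 and 1453 in RUNX3 KO libraries. Both RUNX3 KO libraries lay well above both control libraries. Mean CCNB2 levels were 81.1 ± 4.04 CPM in control and 123 ± 3.21 CPM in RUNX3 KO cells (± SD, n = 2 libraries per condition), which is a rise of 0.60 on the log2 scale with SE 0.0460 (edgeR adjusted p = 1.13e-20). CCNB1, encoding cyclin B1, lies at chr5:68462962-68474072 (plus strand). Its counts were 4357 and 4358 in control and 5511 and 5633 in RUNX3 KO libraries. The CCNB1 replicates were nearly identical at 369 ± 0.169 and 468 ± 1.15 CPM (± SD, n = 2 libraries per condition), with a log2 fold change of 0.34, SE 0.0271 and an edgeR adjusted p of 9.17e-20.

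FOXM1, the transcription factor of the G2/M wave, had 2868 and 2784 counts in control and 3445 and 3742 in RUNX3 KO libraries. FOXM1 rose, with 239 ± 4.96 CPM in control against 302 ± 13.7 CPM in RUNX3 KO cells (± SD, n = 2 libraries per condition) and a log2 fold change of 0.33, SE 0.0320 (edgeR adjusted p = 1.12e-15). It lies at chr12:2966846-2986340 (minus strand), where the 31 nearest tested genes available had a median of 0.37 on the same scale, slightly above FOXM1 itself, and 5 were lower. PLK1, a kinase that acts from mitotic entry to cytokinesis, had 2528 and 2581 counts in control and 2921 and 3108 in RUNX3 KO libraries, a log2 fold change of 0.23 (SE 0.0329). CCNA2 (cyclin A2), AURKA (the centrosomal Aurora kinase) and CDK1 rose by 0.24, 0.19 and 0.13. CDK1 itself, the kinase that these cyclins activate, had 2468 and 2446 counts in control and 2687 and 2741 in RUNX3 KO libraries. It lost its call without RUNX3 KO replicate 1 (0.13, adjusted p = 0.0569) and without RUNX3 KO replicate 2 (0.13, adjusted p = 0.0651), and CCNA2 and AURKA lost theirs without the latter (0.19, adjusted p = 0.0663, and 0.15, adjusted p = 0.0764, all by edgeR). Of the CDC25 phosphatases, which activate CDKs, the members CDC25B and CDC25C were not called. CDC25A, which is no member and was named after its values were seen, had 780 and 833 counts in control against 1042 and 1077 in RUNX3 KO libraries and was higher by 0.38 on the log2 scale with SE 0.0510 (edgeR adjusted p = 6.09e-10). CDC25B had 1306 and 1341 counts in control and 1239 and 1274 in RUNX3 KO libraries (-0.09, SE 0.0437, adjusted p = 0.0869 by edgeR), and passed with library size alone (-0.11, adjusted p = 0.0335) and with upper-quartile scaling (-0.11, adjusted p = 0.0326). CDC25C was the least abundant member, with 176, 203, 185 and 207 counts in the same order of libraries, and its log2 fold change of 0.04 had an SE of 0.108.

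**Figure D2:**
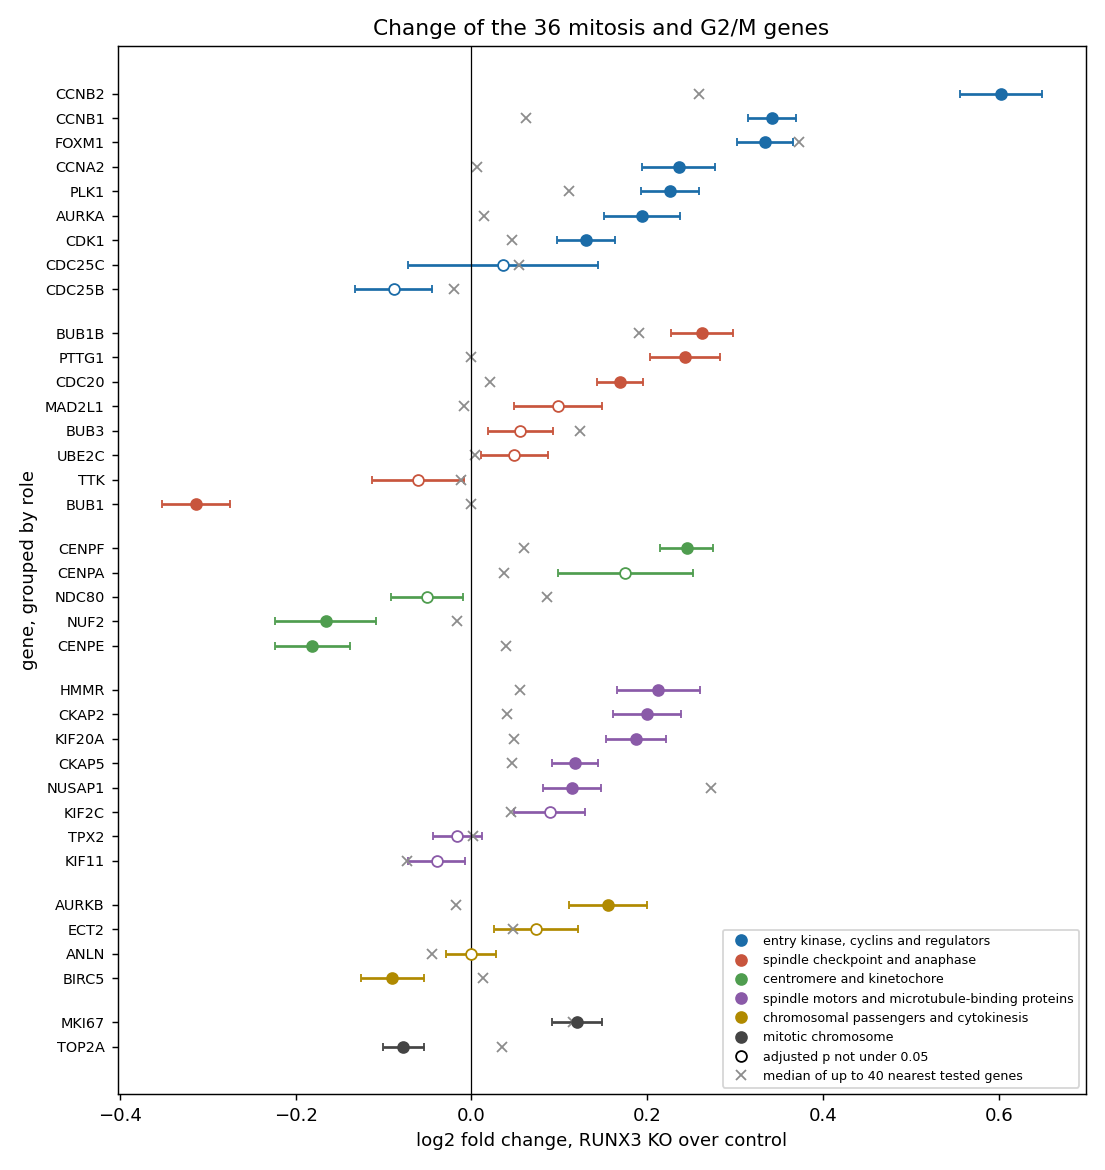
Log2 fold change of each member in RUNX3 KO over control cells (points, n = 2 libraries in each group), with bars of 1 SE and the genes grouped by role. Open points did not pass an adjusted p of 0.05, and crosses give the median of up to 40 nearest tested genes on the chromosome. CCNB2 lies farthest to the right at 0.60 and BUB1 farthest to the left at -0.31, and 7 of the 9 entry genes at the top are filled points above 0.

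Of the 8 genes of the spindle assembly checkpoint and of anaphase, 3 were higher and 1 lower, beside the same 30.9% and 24.8%, and the log2 median was 0.08. BUB1, a checkpoint kinase of the kinetochore at chr2:111395105-111435640 (minus strand), had the largest fall of all members. It had 1895 and 1971 counts in control and 1532 and 1608 in RUNX3 KO libraries, so both RUNX3 KO libraries lay below both control libraries. BUB1 fell, with 164 ± 4.60 CPM in control against 132 ± 2.80 CPM in RUNX3 KO cells (± SD, n = 2 libraries per condition) and a log2 fold change of -0.31, SE 0.0389 (edgeR adjusted p = 4.39e-11). Its relative BUB1B, which encodes the checkpoint protein BUBR1, moved the other way. BUB1B, at chr15:40453224-40513324 (plus strand), had 2087 and 2025 counts in control and 2426 and 2550 in RUNX3 KO libraries (0.26 on the log2 scale with SE 0.0352, edgeR adjusted p = 6.76e-10). The substrate and the activator of the anaphase-promoting complex rose together. PTTG1, which encodes securin, had 1488 and 1493 counts in control and 1777 and 1783 in RUNX3 KO libraries (0.24, SE 0.0396), and CDC20, the activator, had 5241 and 5205 against 5844 and 6006 (0.17, SE 0.0263). BUB3, MAD2L1 and TTK, which encode other checkpoint components, had log2 fold changes of 0.06, 0.10 and -0.06, and UBE2C, the ubiquitin-conjugating enzyme of the complex, 0.05. None of these 4 was called in edgeR with all 4 libraries, with adjusted p-values of 0.0978 to 0.347. UBE2C had 1926, 1927, 1899 and 2124 counts, and its sign turned without RUNX3 KO replicate 2 (-0.02).

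Among the 5 centromere and kinetochore genes, 1 rose and 2 fell, beside 30.9% and 24.8% of tested genes in the same range of counts. Their median log2 fold change was -0.05. CENPF, a large protein of the outer kinetochore, had 3940 and 3803 counts in control and 4788 and 4467 in RUNX3 KO libraries. CENPF rose, with 328 ± 8.11 CPM in control against 389 ± 24.1 CPM in RUNX3 KO cells (± SD, n = 2 libraries per condition) and a log2 fold change of 0.24, SE 0.0302 (edgeR adjusted p = 3.80e-11). CENPE, a kinetochore motor, had 1608 and 1494 counts in control and 1344 and 1418 in RUNX3 KO libraries, a log2 fold change of -0.18 (SE 0.0422). NUF2, a subunit of the NDC80 complex that binds microtubules, had 738 and 739 counts in control and 653 and 676 in RUNX3 KO libraries (-0.17, SE 0.0576). CENPE and NUF2 kept their direction and lost their calls when either RUNX3 KO library was left out. Without replicate 1 the adjusted p was 0.163 for CENPE (-0.15) and 0.111 for NUF2 (-0.15), and without replicate 2 it was 0.109 (-0.21) and 0.0881 (-0.18), by edgeR. NUF2 also lost its call with DESeq2 (adjusted p = 0.192). NDC80, the partner of NUF2, had 1559, 1586, 1485 and 1580 counts (-0.05, SE 0.0406), and CENPA, the centromeric histone H3 variant, had 369, 363, 431 and 403 counts (0.17, SE 0.0770, adjusted p = 0.0518 by edgeR).

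Of 8 spindle motors and microtubule-binding proteins, 5 rose and none fell, beside 30.9% and 24.8% of tested genes in the same range of counts. Their median was 0.12 on the log2 scale. HMMR, which binds hyaluronan and spindle microtubules, had 1025 and 1114 counts in control and 1206 and 1295 in RUNX3 KO libraries (0.21, SE 0.0470). CKAP2, a microtubule-stabilising protein, had 1655 and 1645 against 1879 and 1945 counts (0.20, SE 0.0383). KIF20A, a kinesin of the central spindle, had 2274 and 2222 against 2555 and 2609 counts (0.19, SE 0.0342). In each of these genes both RUNX3 KO libraries exceeded both control libraries. CKAP5, a microtubule polymerase, and NUSAP1, which bundles spindle microtubules, rose by 0.12 and 0.11. HMMR lost its call without RUNX3 KO replicate 1 (0.25, adjusted p = 0.0771) and replicate 2 (0.17, adjusted p = 0.166), CKAP5 without replicate 1 (0.10, adjusted p = 0.0732) and NUSAP1 without replicate 2 (0.07, adjusted p = 0.177), all by edgeR. NUSAP1 was also lost with DESeq2 (adjusted p = 0.0764) and without a filter on low counts (adjusted p = 0.0550). The mitotic kinesins KIF11 and KIF2C and the spindle assembly factor TPX2 were not called, at -0.04 (SE 0.0325), 0.09 (SE 0.0404) and -0.02 (SE 0.0281). KIF2C was called without control replicate 2 (0.12, adjusted p = 0.0379 by edgeR), and TPX2 turned to 0.02 without RUNX3 KO replicate 1.

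The genes of the chromosomal passenger complex moved in opposite directions. AURKB, its kinase, had 1248 and 1252 counts in control and 1446 and 1363 in RUNX3 KO libraries (0.15, SE 0.0439, adjusted p = 0.00205 by edgeR), whereas BIRC5, which encodes survivin, had 2245 and 2322 against 2094 and 2237 counts (-0.09, SE 0.0357, adjusted p = 0.0299 by edgeR). Both calls were weak. AURKB lost its call without RUNX3 KO replicate 1 (0.10, adjusted p = 0.141), and BIRC5 without control replicate 2 (-0.07, adjusted p = 0.203), RUNX3 KO replicate 1 (-0.05, adjusted p = 0.374) or RUNX3 KO replicate 2 (-0.12, adjusted p = 0.110), by edgeR. Both were lost with DESeq2 (adjusted p = 0.0906 and 0.249) and without a filter on low counts (adjusted p = 0.0601 and 0.132). For cytokinesis, ANLN (anillin) had 4481, 4341, 4506 and 4395 counts, a log2 fold change of 0 to 2 decimals (SE 0.0285), and ECT2, the exchange factor for RhoA at the division plane, had 1121, 1065, 1097 and 1225 counts (0.07, SE 0.0477). The libraries of the conditions overlapped in both genes.

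The proliferation marker and the mitotic topoisomerase also differed in direction. MKI67, which encodes Ki-67, had 5875 and 5379 counts in control and 6305 and 6032 in RUNX3 KO libraries. In CPM, RUNX3 KO replicate 2 (502) was barely above control replicate 1 (498), and MKI67 as a whole was higher by 0.12 on the log2 scale with SE 0.0284 (edgeR adjusted p = 0.000237). The call for MKI67 was lost without control replicate 2 (0.06, adjusted p = 0.115), RUNX3 KO replicate 1 (0.08, adjusted p = 0.439) or RUNX3 KO replicate 2 (0.16, adjusted p = 0.164) in edgeR, with DESeq2 (adjusted p = 0.268) and without a filter (adjusted p = 0.149). TOP2A, the topoisomerase that untangles sister chromatids, had 10825 and 10759 counts in control and 10432 and 10206 in RUNX3 KO libraries, the most counts of any member. The difference for TOP2A came to -0.08 on the log2 scale with SE 0.0232 (edgeR adjusted p = 0.00350), and it lost its call without RUNX3 KO replicate 2 (-0.05, adjusted p = 0.180), with DESeq2 (adjusted p = 0.0505) and without a filter (adjusted p = 0.0728).

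Over 13 fits with a test of no change, 11 members were called in each, namely BUB1 as lower and CCNB1, CCNB2, FOXM1, BUB1B, CENPF, PTTG1, PLK1, CKAP2, CDC20 and KIF20A as higher. The share of all tested genes called in each of these fits was not counted. The order of transcript levels was largely shared by the conditions. Per kilobase of merged exons in the GENCODE annotation, CDC20 was highest in control cells at 220 CPM, followed by CCNB1 at 152, TOP2A at 143, UBE2C at 127 and TPX2 at 108, and the same 5 genes led in the same order in RUNX3 KO cells at 247, 192, 136, 131 and 107. CDC25C was lowest in both, at 4.82 and 4.94. The median over the members was 38.3 CPM per kilobase in control and 44.5 in RUNX3 KO cells, with different genes at the middle ranks. The median log2 fold change of the members was 0.12. In rank, 5 of the 36 genes changed by more than 3 places. CCNB2 went from rank 24 (29.5) to rank 18 (44.7), FOXM1 from 13 to 9, BIRC5 from 11 to 16, KIF11 from 15 to 19 and NDC80 from 19 to 23.

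**Figure D3:**
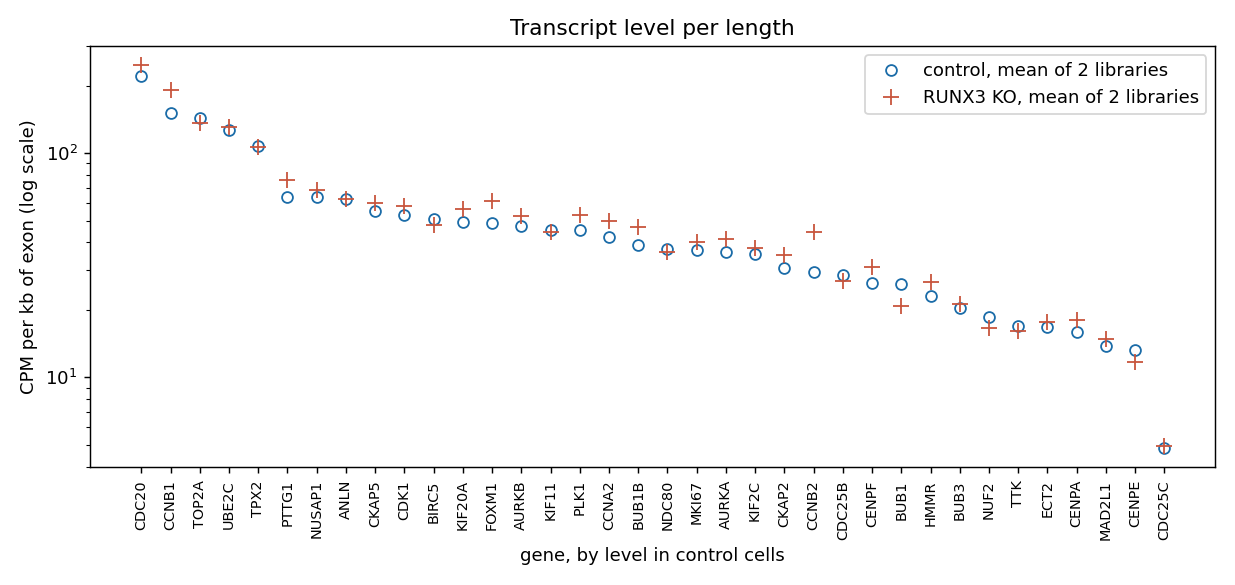
Transcript level of each member per kilobase of merged exons (log axis), as the mean of 2 libraries in control (circles) and RUNX3 KO cells (plus signs), ordered by the level in control cells. The range runs from 4.82 for CDC25C to 220 for CDC20 in control cells, and most pairs of symbols nearly coincide, with CCNB2 the widest apart.

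Some of these changes resembled those of the genes around the member. For each member, the median log2 fold change was taken over the 20 nearest tested genes on each side, or fewer near a chromosome end. It lay above 0.1 for 7 members (BUB1B, BUB3, CCNB2, FOXM1, MKI67, NUSAP1 and PLK1), of which 6 were called higher, and within 0.1 of 0 for the other 29, of which 12 were called higher and 5 lower. The same split was not made over all tested genes, so the share called in such neighbourhoods in general is not known. On chromosome 15 the medians were 0.26 around CCNB2, 0.27 around NUSAP1 and 0.19 around BUB1B. With this median subtracted, CCNB2 remained at 0.34 and CCNB1 at 0.28, BUB1B came to 0.07 and MKI67 to 0.00, and FOXM1 and NUSAP1 turned to -0.04 and -0.16. BUB1 stayed at -0.31, as the genes around it had a median of 0 to 2 decimals. The median over all 36 members went from 0.12 to 0.04. The part of position in these changes was not tested.

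**Figure D4:**
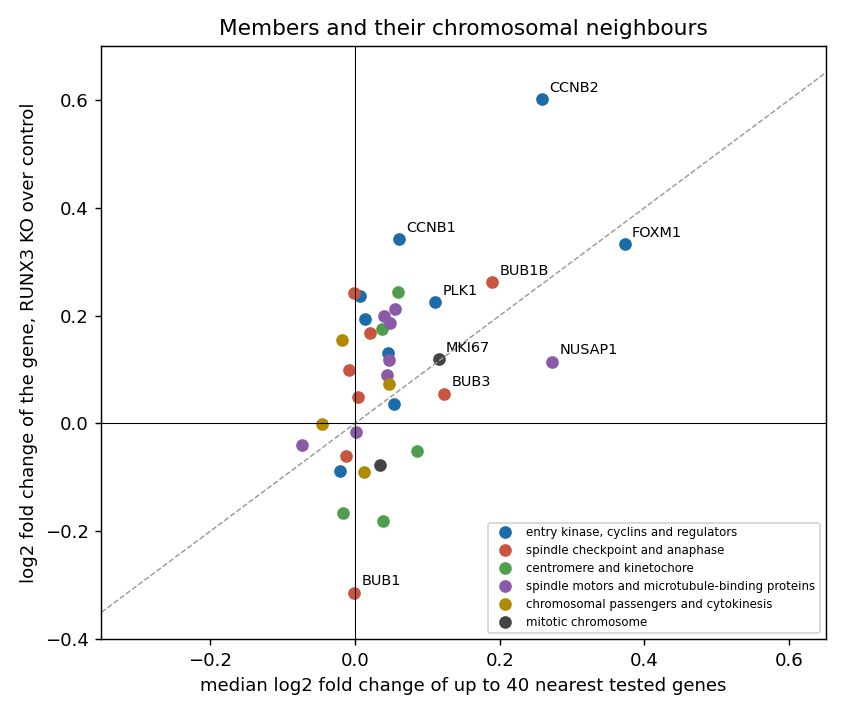
Log2 fold change of each member (vertical axis) against the median log2 fold change of up to 40 nearest tested genes (horizontal axis), coloured by role, with the line of equal values dashed. CCNB2 and BUB1B lie above the line at neighbour medians of 0.26 and 0.19, FOXM1 and NUSAP1 below it at 0.37 and 0.27, and most members, BUB1 and CCNB1 included, lie near a neighbour median of 0.

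A further 106 mitotic genes that are not among the 36 were all tested. Of these, 29 (27.4%) were higher and 21 (19.8%) lower, the median being 0.03 on the log2 scale, close to the shares of all tested genes. Without RUNX3 KO replicate 1 these counts were 13 and 9, without RUNX3 KO replicate 2 they were 11 and 5, and DESeq2 gave 21 and 13. By role, 4 of 21 kinesin and spindle genes were higher and 5 lower, against 6 and 8 of 31 at the kinetochore, 3 and 1 of 17 of the checkpoint and the anaphase-promoting complex, 5 and 2 of 12 kinases, phosphatases and cyclins, 3 and 2 of 8 passenger and cytokinesis genes, and 8 and 3 of 17 in condensin and cohesin. PRC1, the microtubule bundler of the central spindle, had the largest rise, from 3052 and 2981 counts to 4817 and 5015 (0.69, SE 0.0294), and lies on chromosome 15 among genes with a median of 0.67. CKS2, a CDK-binding subunit, rose from 1761 and 1875 to 2893 and 2881 counts (0.65, SE 0.0355), among genes on chromosome 9 with a median of 0.34. OIP5, a factor for loading CENPA, went from 185 and 219 to 282 and 328 counts (0.58, SE 0.0974), with an adjusted p of 0.0892 by edgeR without RUNX3 KO replicate 2 (0.48). The genes around OIP5 on chromosome 15 had a median of 0.24. CENPI, of the inner kinetochore, fell most, from 607 and 610 counts to 283 and 339 (-0.98, SE 0.0743), while the genes around it on the X chromosome had a median of -0.12. GTSE1, a G2 protein that binds microtubules, and NCAPH2, of condensin II, fell by 0.70 and 0.49, and both lie on chromosome 22 among genes with medians of -0.52 and -0.55.

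Genes of DNA replication and the G1/S transition were called higher in 22 of 50 cases (44%) and lower in 7 (14.0%). The shares of all tested genes were 24.5% and 24.4%, and those in the range of counts of the members 30.9% and 24.8%. With a log2 median of 0.09, more of the 50 genes were higher than lower, as among the 36. Differences between lists were not tested. Of the 50 genes, DESeq2 called 15 higher and 3 lower, and the fit without a filter 18 and 4. Calls were fewer when either RUNX3 KO library was left out. E2F8, a repressor of the E2F family, rose by 0.49, CCNE1 (cyclin E1) by 0.43 and GMNN (geminin, the inhibitor of replication licensing) by 0.38. The call for CCNE1 was lost without RUNX3 KO replicate 1 (0.41, adjusted p = 0.0532) or RUNX3 KO replicate 2 (0.45, adjusted p = 0.0517) in edgeR. MCM5 and CDC45, of the replicative helicase, fell by 0.49 and 0.37 and lie on chromosome 22, where the genes around them had medians of -0.51 and -0.54. MCM10, a helicase activator, fell by 0.26 among genes on chromosome 10 with a median of -0.25.

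**Figure D5:**
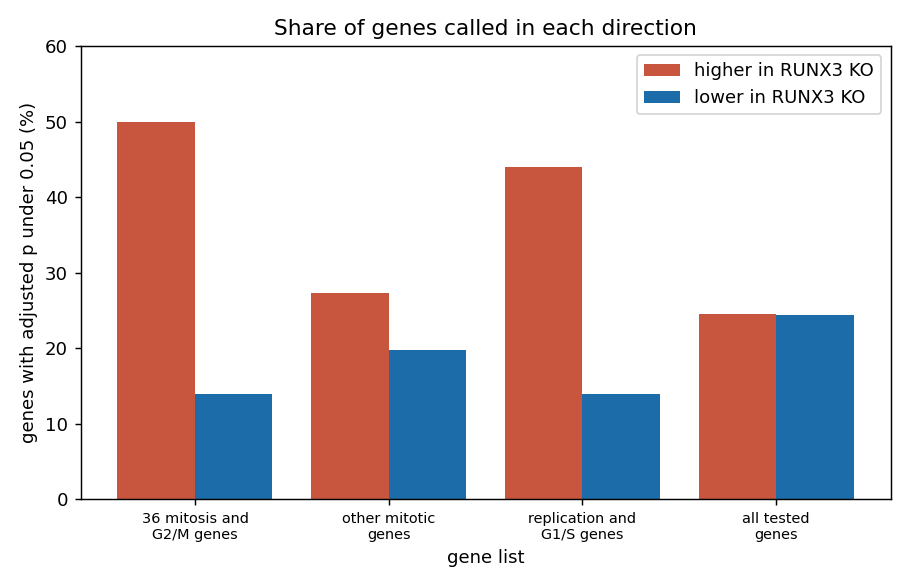
Share of genes (vertical axis, %) with an adjusted p under 0.05 by edgeR in each list, higher (red) or lower (blue) in RUNX3 KO than in control cells. The 36 mitosis and G2/M genes stand at 50% higher and 13.9% lower, the other mitotic genes at 27.4% and 19.8%, replication and G1/S genes at 44% and 14.0%, and all tested genes at 24.5% and 24.4%.

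Of the factors that act on these promoters, FOXM1 rose, as given above, among genes with a median of 0.37 on the log2 scale. MYBL2, which encodes B-MYB, had 3843 and 3897 counts in control and 3845 and 3915 in RUNX3 KO libraries. It was not called (-0.01, SE 0.0291). Of 15 genes for MuvB, its other partners and NF-Y, 3 were higher and none lower, beside 24.5% and 24.4% of all tested genes, with a log2 median of 0.01. E2F4, RBBP4 and TFDP1 rose by 0.19, 0.18 and 0.15, and each lost its call without RUNX3 KO replicate 2 (0.17, adjusted p = 0.0594, 0.17, adjusted p = 0.0528, and 0.12, adjusted p = 0.106, by edgeR). Among CDK inhibitors, 6 of 7 were tested, 2 of them higher and 2 lower. CDKN2A, which encodes p16 and ARF, rose from 745 and 776 counts to 1514 and 1560 (1.00, SE 0.0474), among genes on chromosome 9 with a median of 0.72. CDKN2B beside it rose by 0.62 at 55 to 113 counts per library and lost its call with DESeq2 (adjusted p = 0.0835), without a filter (adjusted p = 0.0787) and without control replicate 2 (0.35, adjusted p = 0.121), RUNX3 KO replicate 1 (0.51, adjusted p = 0.257) or RUNX3 KO replicate 2 (0.72, adjusted p = 0.150) in edgeR. CDKN1A, which encodes p21, fell from 138 and 132 counts to 88 and 90 (-0.61, SE 0.140), and CDKN2C, which encodes p18, fell by 0.22, with an adjusted p of 0.0595 by edgeR without RUNX3 KO replicate 2 (-0.22).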

How the data were processed

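RNA-seq was performed on HGC27 cells with 2 control (wildtype) and 2 RUNX3 KO libraries. The authors deposited raw read counts per gene symbol for each library, without normalization. The paper names STAR and featureCounts with hg19 and GENCODE, whereas the submitters' processing notes name HISAT2 2.1.0 and HTSeq with hg19, and the tables close with 5 rows in the form of htseq-count. Those rows, 25.9% to 28.1% of all counts, were left out. The strand setting is not given in the sources used here, so counts of overlapping genes are uncertain. Medium, extraction and library preparation are also described differently in the labels and the paper.

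Tests used edgeR 4.0.16 under R 4.3.3 (filterByExpr with a minimum count of 10, TMM, glmQLFit and glmQLFTest, Benjamini-Hochberg adjustment over 12967 genes), without a replicate block. Each SE was obtained as the absolute log2 fold change over the root of its F statistic. The steps were tested on simulated counts. The alternatives were other scalings, filters, DESeq2 1.42.0, limma-voom (limma 3.58.1), a replicate block, glmTreat, left-out libraries and subtraction of the neighbourhood median. The members and lists were chosen with earlier results of these data known. Each member is named. Of other lists, up to 3 genes with the largest rise and fall are named, among those called with non-overlapping groups and 50 or more counts on average. CDC25A and MYBL2 are named besides. Positions came from GENCODE on GRCh37, which matched 21484 of 25559 symbols (19372 directly, 2112 by RefSeq synonym), 12115 of them tested. Depth limits genes with few counts, and SEs cover only the spread between these libraries.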

Additional observations from a re-analysis of the deposited data

How the results depend on the processing

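The median log2 fold change of the members lay between 0.10 and 0.12 under each scaling, filter and test, and no member or named gene that was called changed sign in a fit. Other settings moved counts of calls. With DESeq2, 2 members were lower, as were 1863 of all genes (1829 higher), 13 other mitotic genes and 3 replication genes. With no filter on low counts, 3 members and 4 replication genes were lower, and at an adjusted p under 0.01, 3 members. Against a minimum change of 1.2-fold, 0 members were lower and 3 higher, with 1474 and 912 of all genes, 3 and 7 other mitotic genes and 2 and 2 replication genes. With a fold of at least 1.5, 1 member passed. Subtracting the neighbourhood median moved the median of the members to 0.0448 and turned FOXM1 to -0.0395 and NUSAP1 to -0.16. With each library left out in turn, members called lower ranged from 1 to 5 and higher from 12 to 18, all genes from 1378 to 2806 lower and 1285 to 2745 higher, other mitotic genes from 5 to 21 and 11 to 26, and replication genes from 3 to 6 and 11 to 21. RUNX3 ranged from -0.86 to -0.55. These fits rest on 3 libraries, the lone one being assumed to vary like the pair. Among members that were not called, ANLN turned to 0.000216 with DESeq2 size factors, 0.000297 with DESeq2 and 0.00228 without a filter. With single libraries left out, ANLN ranged from -0.0293 to 0.0308, CDC25C from -0.0638 to 0.140, UBE2C from -0.0207 to 0.117 and TPX2 from -0.0471 to 0.0161.

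The labels give both groups replicate numbers 1 and 2 but tie no number to a shared culture or day, and deviations of same-numbered libraries from their group means correlated with r = 0.03 across 12967 genes and r = 0.23 across the 36 members. With only 2 pairs and no shared source in the labels, the number was not taken as a pairing. With a replicate block, 5 members were lower and 18 higher, as without it, and 3143 genes were lower and 3143 higher in all.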
